A study of Arabidopsis thaliana with 40 samples.

Results

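Of 22746 probe sets measured in Arabidopsis leaves, 80 were high in the untreated aox1a:rpoTmp double mutant and near the level of wild type in both untreated single mutants when the lines of each were averaged. These 80 members were chosen from the untreated arrays on log2 group means, with the lines of a single mutant averaged. A member had to lie at least 2 above the wild type of its own set in the double mutant, to reach a double mutant mean of at least 6, and to differ by less than 0.5 from wild type in aox1a and in rpoTmp. Of 305 probe sets with such a rise, 219 reached the level, 117 of those also met the limit in aox1a and 84 met it in both single mutants. A further 4 of these 84 (AT2G04050, NDB4, GSTU25 and UGT76B1) were left out by name. Of the 80 members, 38 are paired with 1 gene, 1 with several genes and 41 with none, and these 41 are given by probe set. Taken line by line, 32 of the 80 had an untreated single mutant line at least 0.5 from wild type, and 3 had one at least 1 away. AT5G52750 lay at 0.60 in rpoTmp line 1 and -1.47 in line 2, AT1G65500 at 1.01 in rpoTmp line 1 and -0.40 in line 2, and 256933_at, named after its values were seen, at 0.52 in aox1a line 1 and -1.02 in line 2. The untreated values chose the members, so they are described here and not tested. The arrays of plants under stress were not used in the choice, and the tests compare them. Each fit pools the spread over both treatments, however, so the untreated arrays enter the standard errors and p-values.

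Plant mitochondria pass electrons to oxygen by the cytochrome pathway and by the alternative oxidase, which accepts them from ubiquinol. AOX1A is the main leaf form of that oxidase. RPOTMP is a phage-type RNA polymerase, encoded in the nucleus, that transcribes organellar genes. When mitochondrial function is impaired, signals to the nucleus, known as retrograde signalling, alter the transcription of nuclear genes, among them genes for chaperones, detoxifying enzymes and defence.

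The 40 arrays form 16 groups in 3 sets, and each mutant was compared with the Columbia (Col0) wild type that the labels name as its control. The double set holds 3 arrays each of untreated wild type, untreated double mutant, wild type under moderate light and drought (MLD) and double mutant under MLD. The aox1a set and the rpoTmp set hold 14 arrays each, with 3 wild-type arrays per treatment and 2 mutant lines with 2 arrays per line and treatment. MLD plants were moved to about 350 µE of light without water for 4 days, and untreated plants stayed at 100 µE with watering. The labels disagree on age. Both genotypes of the double set are put at 5 weeks (untreated) or 4 weeks (MLD) in the sample characteristics, whereas the protocol has double mutants at 6 to 7 weeks and wild type at 4. For rpoTmp the characteristics and the protocol give 5 weeks, against 4 for its wild type. The sample source names, by contrast, put the plants of every group in all sets at 4 weeks. In the aox1a set all plants are labelled 4 weeks. Where these labels differ, age cannot be told apart from genotype (double and rpoTmp sets, by the protocol) or from treatment (double set, by the characteristics). The double mutant has no second line, and the labels do not say whether replicates are separate plants or pools, so the p-values below measure only the spread between these samples, which may be technical.

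Values are intensities on a linear scale as deposited, taken to log2 here, and a log2 difference of 1 is a doubling. The lowest value on an array was 2.66 to 3.12 units. Log2 values under about 3 are called near the floor here, and 36.5% of all probe sets lay there in untreated wild type of the double set. Array medians lay between 23.3 and 26.9 intensity units and no array had a correlation below 0.977 with another of its group. No probe set is paired with AOX1A in the gene table used, and that of RPOTMP (AT5G15700) was dim, with group means between log2 2.48 and 4.28, so neither gave a firm check of the genotypes. A sign of RNA quality, the log2 difference between 3′ and 5′ probe sets of GAPDH, moved with genotype in the double set. In the first of the GAPDH pairs it was 3.49 to 3.66 in untreated wild type against 3.13 to 3.25 in the double mutant, and 3.88 to 4.10 against 3.06 to 3.57 under MLD, without overlap in either treatment. In the second pair the genotypes overlapped in both treatments (0.30 to 0.65 under MLD). Its part in the double mutant differences was not tested. The leaf marker RCA, which encodes Rubisco activase, summed to 19126 to 20582 intensity units in untreated wild type and 19046 to 19975 in the untreated double mutant. It is the 1 leaf mesophyll marker of 7 that is measured. The root marker EXPA7 stayed near the floor in the double set (4.56 to 5.50 intensity units), the guard cell marker FMA read 50.7 to 74.1 in the untreated double mutant against 56.2 to 93.7, and no floral, dividing-cell or phloem marker is measured by a single-gene probe set. Fewer cells of a type and less RNA per cell cannot be told apart in whole leaves.

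In the untreated double mutant 1 array stood apart for these members. On replicate 1, 23 of the 80 members were at least 1 log2 unit above the mean of replicates 2 and 3, against 238 of 22746 probe sets (1.05%). At least 1 below it were 6 members, against 142 probe sets. Only 2 members were that far above the other arrays on replicate 2, and 2 on replicate 3, against 0.198% and 0.501% of all probe sets. The mean of these arrays chose the members, so 1 high array could help a probe set in. These shares are thus a description, and their difference was not tested. The protein folding members were all among these 23 and are shown first below. Without that array 73 probe sets met the rule, 67 of them among the 80. The 13 members lost include CML38, AT3G01830, AT5G48570, AT2G18690, SBT3.5 and AT1G72900.

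The untreated differences of the 80 members ran from 2.02 to 8.22 log2 units with a median of 3.20. Every untreated double mutant array lay above every untreated wild-type array of its set for 80 of 80 members, against 16.7% of all probe sets, which the rule itself brings about. The median member went from log2 3.94 in wild type to 7.27 in the double mutant, and 21 members had a wild-type mean under log2 3, so they were close to the floor there and the size of their difference is not exact. Just inside the limit on the difference lay 262119_s_at (2.02), AT1G72900 (2.03) and 265449_at (2.06), and just outside lay AT1G66880 (1.94), AT1G55210 (1.91) and AT2G24160 (1.91). The smallest double mutant levels inside were 6.00 for 249770_at and 6.01 for 260706_at, and 267567_at (5.97) lay just outside.

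Under MLD, 22 of the 80 members were higher in the double mutant than in wild type, 17 were lower and 41 were not called either way (limma, Benjamini-Hochberg adjusted p under 0.05 over all probe sets). Over all probe sets 18.8% were higher and 17.1% lower, and 35.9% were called in all, against 27.5% and 21.2% of the members. The median difference of the members was 0.17, with a range from -3.65 to 6.15, and the median over all probe sets was -0.02. All double mutant arrays lay above all wild-type arrays for 27 members and below for 25, against 22.1% and 28.3% of all probe sets. With the untreated array that stood apart left out of the fit, 22 members were higher and 22 lower. That fit was chosen after the data were seen, and the shares over all probe sets were not taken for it. The members thus lay on both sides of wild type in the stressed double mutant. In the fit with all arrays their called shares were somewhat above those of all probe sets, a difference that was not tested.

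**Figure D1:**
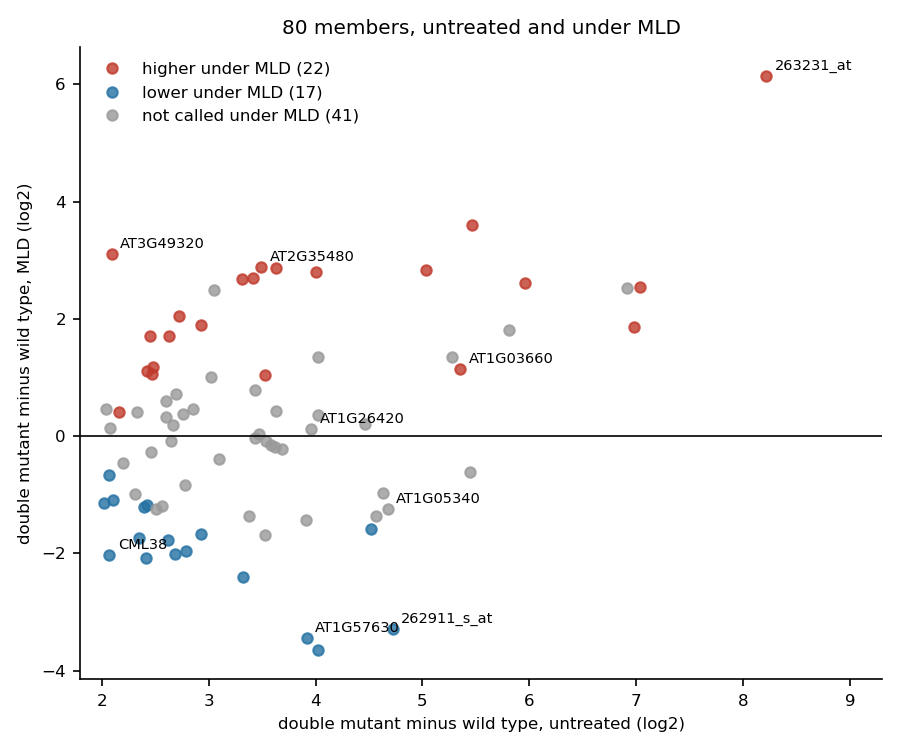
Each point is 1 of the 80 members, with the difference between double mutant and wild type untreated on the x axis and under MLD on the y axis, both in log2 units (means of 3 arrays per group). Colours give the call under MLD (22 higher, 17 lower, 41 not called). All points lie at or above 2 on the x axis by the choice of members, and on the y axis they spread from -3.65 to 6.15.

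The protein folding members (4, grouped after their values were seen) were Hsp70-2, a chaperone of the HSP70 family, Fes1A, a partner of HSP70 chaperones, AT5G48570, a peptidyl-prolyl isomerase of the FKBP type, and 262911_s_at, a probe set paired with both small heat shock protein genes AT1G59860 and AT1G07400, whose transcripts it cannot separate. Fes1A read log2 4.85, 4.27 and 4.91 on the untreated wild-type arrays and 9.70, 7.21 and 7.41 in the double mutant. AT5G48570 read 3.95, 3.86 and 4.67 against 8.73, 5.62 and 5.67. Hsp70-2 read 4.89, 5.74 and 5.25 against 10.26, 8.09 and 8.60. In each of these the groups did not overlap, and double mutant replicate 1 was the highest array.

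For 262911_s_at, which lay between 2.46 and 2.65 in untreated wild type, the untreated double mutant read 9.64, 6.02 and 6.15. On that first array the protein folding members exceeded the mean of the other arrays by 1.91 to 3.56. Of the 3 listed heat shock genes outside the members, AT1G53540, a small heat shock protein gene, read 6.32, 3.29 and 2.19 in the untreated double mutant against at most 2.15 in wild type, and AT5G37670 read 5.67, 3.91 and 4.43 against 4.67 to 5.16. The same array was thus the highest untreated array of the double set for both. ATHSP22.0 stayed near the floor, at 2.73 or less. The part of this array's handling in the result was not tested.

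Under MLD none of the protein folding members was called higher in the double mutant. Hsp70-2 read 7.70, 7.74 and 7.73 in wild type and 7.50, 7.68 and 7.35 in the double mutant, a difference of -0.21 ± 0.46 (SE; adjusted p = 0.787, limma). Fes1A differed by -0.04 ± 0.60 (adjusted p = 0.975, limma). The small heat shock probe set 262911_s_at was lower, with 6.42, 6.20 and 6.87 in wild type and 2.71, 3.02 and 3.89 in the double mutant (-3.29 ± 0.82, adjusted p = 0.0105, limma). Stressed wild type thus lay near the level of untreated double mutant replicates 2 and 3, while the stressed double mutant read at most 3.89. The call was lost with a pseudocount of 16 (-2.06, adjusted p = 0.0639, limma).

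AT5G48570 read 6.25, 6.73 and 6.83 in wild type under MLD and 5.33, 5.37 and 5.37 in the double mutant. These groups did not overlap, but with the untreated array that stood apart in the fit the difference of -1.24 ± 0.70 was not called (adjusted p = 0.223, limma). Without that array its SE fell to 0.22 and it was called lower (adjusted p = 0.00213, limma). That fit was chosen after the data were seen, and without the array AT5G48570 does not meet the rule for members.

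**Figure D2:**
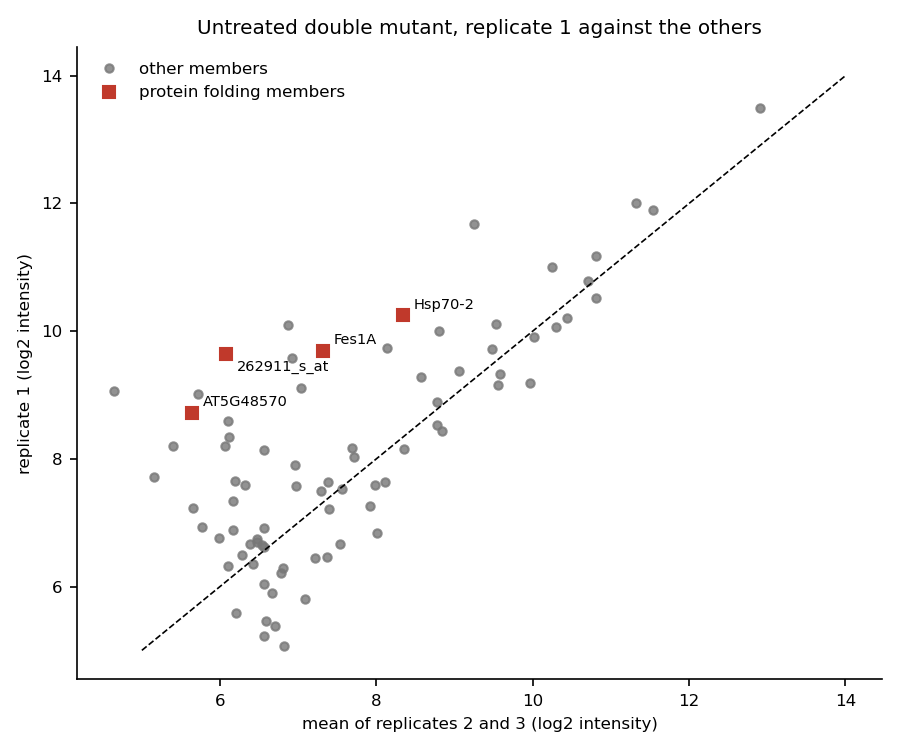
Each point is a member in the untreated double mutant, with the mean log2 intensity of replicates 2 and 3 on the x axis and that of replicate 1 on the y axis; the dashed line marks equal values. The 4 protein folding members (squares) lie 1.91 to 3.56 above the mean of the other arrays, and most other members lie closer to the line.

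Calcium and ion signalling members were CML38, AT3G01830 and AT3G47480, which encode calmodulin-like calcium sensors, and GLR2.7, a glutamate receptor-like channel. CML38 read 4.07, 4.44 and 3.75 in untreated wild type and 6.93, 6.19 and 5.34 in the untreated double mutant. Under MLD it read 12.60, 12.66 and 12.48 in wild type and 11.21, 9.90 and 10.52 in the double mutant. It was thus high in the untreated double mutant and yet lower than wild type under stress, by 2.03 ± 0.41 (log2 change -2.03, adjusted p = 0.00337, limma).

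AT3G01830 lay between 2.81 and 3.12 in untreated wild type and at 6.77, 5.90 and 6.08 in the double mutant, then at 11.54, 11.50 and 11.52 in wild type under MLD against 10.06, 8.43 and 8.84 (-2.41 ± 0.37, adjusted p = 0.000666, limma). For both calcium sensors stressed wild type was the highest group of the double set, and no stressed double mutant array reached it. In the wild types of the other sets the same stress moved the mean of CML38 by 1.12 (aox1a set) and 0.11 (rpoTmp set), against 8.49 in the double set. In that difference the set cannot be told apart from the age of the plants.

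GLR2.7 was one of the members for which the untreated wild type of the double set was itself low. It read 3.36, 3.35 and 4.15 there and 6.36, 6.20 and 6.64 in the double mutant, while untreated wild type read 6.25, 6.84 and 6.31 in the aox1a set and 7.12, 7.19 and 6.60 in the rpoTmp set. Its untreated double mutant level therefore lay within or below the range of other wild types. Under MLD the double mutant differed from wild type by -0.83 ± 0.35 (adjusted p = 0.0987, limma). AT3G47480 was not called in any mutant under MLD.

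Receptor-type and immune members were AT1G57630 and AT1G72900, which encode proteins with a TIR domain as found in immune receptors, AT1G35710, a receptor kinase with leucine-rich repeats, and AT4G11000, an ankyrin repeat protein. AT1G57630 read 3.69, 3.94 and 3.79 in untreated wild type and 9.11, 7.21 and 6.86 in the double mutant. Under MLD the order was the other way round, with 8.54, 7.47 and 7.17 in wild type and 3.94, 4.98 and 3.94 in the double mutant (-3.44 ± 0.58, adjusted p = 0.00115, limma). No array of one genotype overlapped the other in either treatment.

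AT1G72900 lay between 5.10 and 5.65 in untreated wild type and between 7.06 and 7.53 in the double mutant, and under MLD it was high in both, at 9.48 to 9.72 and 9.70 to 10.35 (0.46 ± 0.20, adjusted p = 0.114, limma). The receptor kinase AT1G35710 read 7.10, 8.45 and 7.74 against 10.21, 10.34 and 10.53 untreated. In the rpoTmp set, however, untreated wild type read 10.18, 10.75 and 9.94. Neither AT1G35710 nor AT4G11000 was called in the double mutant under MLD (0.33 ± 0.35, adjusted p = 0.548, and -0.45 ± 0.55, adjusted p = 0.601, limma).

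Small secreted and membrane members and proteases were AT3G10930, a small peptide gene of the IDA-like kind, AT1G05340 and AT1G56060, small cysteine-rich membrane proteins, and SBT3.5, a subtilisin-type protease. None of the 4 was called in the double mutant under MLD. AT3G10930 was low in untreated wild type (3.69, 3.84 and 3.91), higher in the double mutant (6.66, 8.01 and 7.06) and high in both genotypes under MLD, at 10.44, 9.85 and 9.42 in wild type and 10.58, 10.60 and 10.88 in the double mutant (0.79 ± 0.34, adjusted p = 0.104, limma). Its stressed level thus lay above its untreated double mutant level in both genotypes.

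For AT1G05340 the single and double mutants went different ways under stress. It read 2.97, 2.76 and 3.65 in untreated wild type and 9.57, 6.77 and 7.06 in the untreated double mutant, and it stayed near the floor (2.45 to 2.73) in all untreated single mutant arrays. Under MLD it read 7.50, 8.40, 6.89 and 6.86 in the aox1a lines against 2.57, 2.85 and 2.72 in their wild type (4.70 ± 0.20, adjusted p = 1e-05, limma). It read 6.96, 4.65, 7.38 and 7.77 in the rpoTmp lines against 2.48, 4.74 and 2.60 (3.42 ± 0.61, adjusted p = 0.00228, limma).

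In the double set under MLD, AT1G05340 was already high in wild type at 7.26, 7.52 and 7.85, and the double mutant read 6.41, 6.66 and 5.83. That difference, -1.24 ± 0.64, was not called (adjusted p = 0.178, limma), although the groups did not overlap. Without the untreated array that stood apart, a fit chosen after the data were seen, it was called lower (SE 0.29, adjusted p = 0.0085, limma). Against the sum of the single effects the double mutant lay at -9.36 ± 0.94 (adjusted p = 1.51e-08, limma over all 40 arrays). That contrast sets effects against wild types of different sets, which for this gene under MLD read 7.26 to 7.85 in the double set and 2.57 to 2.85 in the aox1a set.

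**Figure D3:**
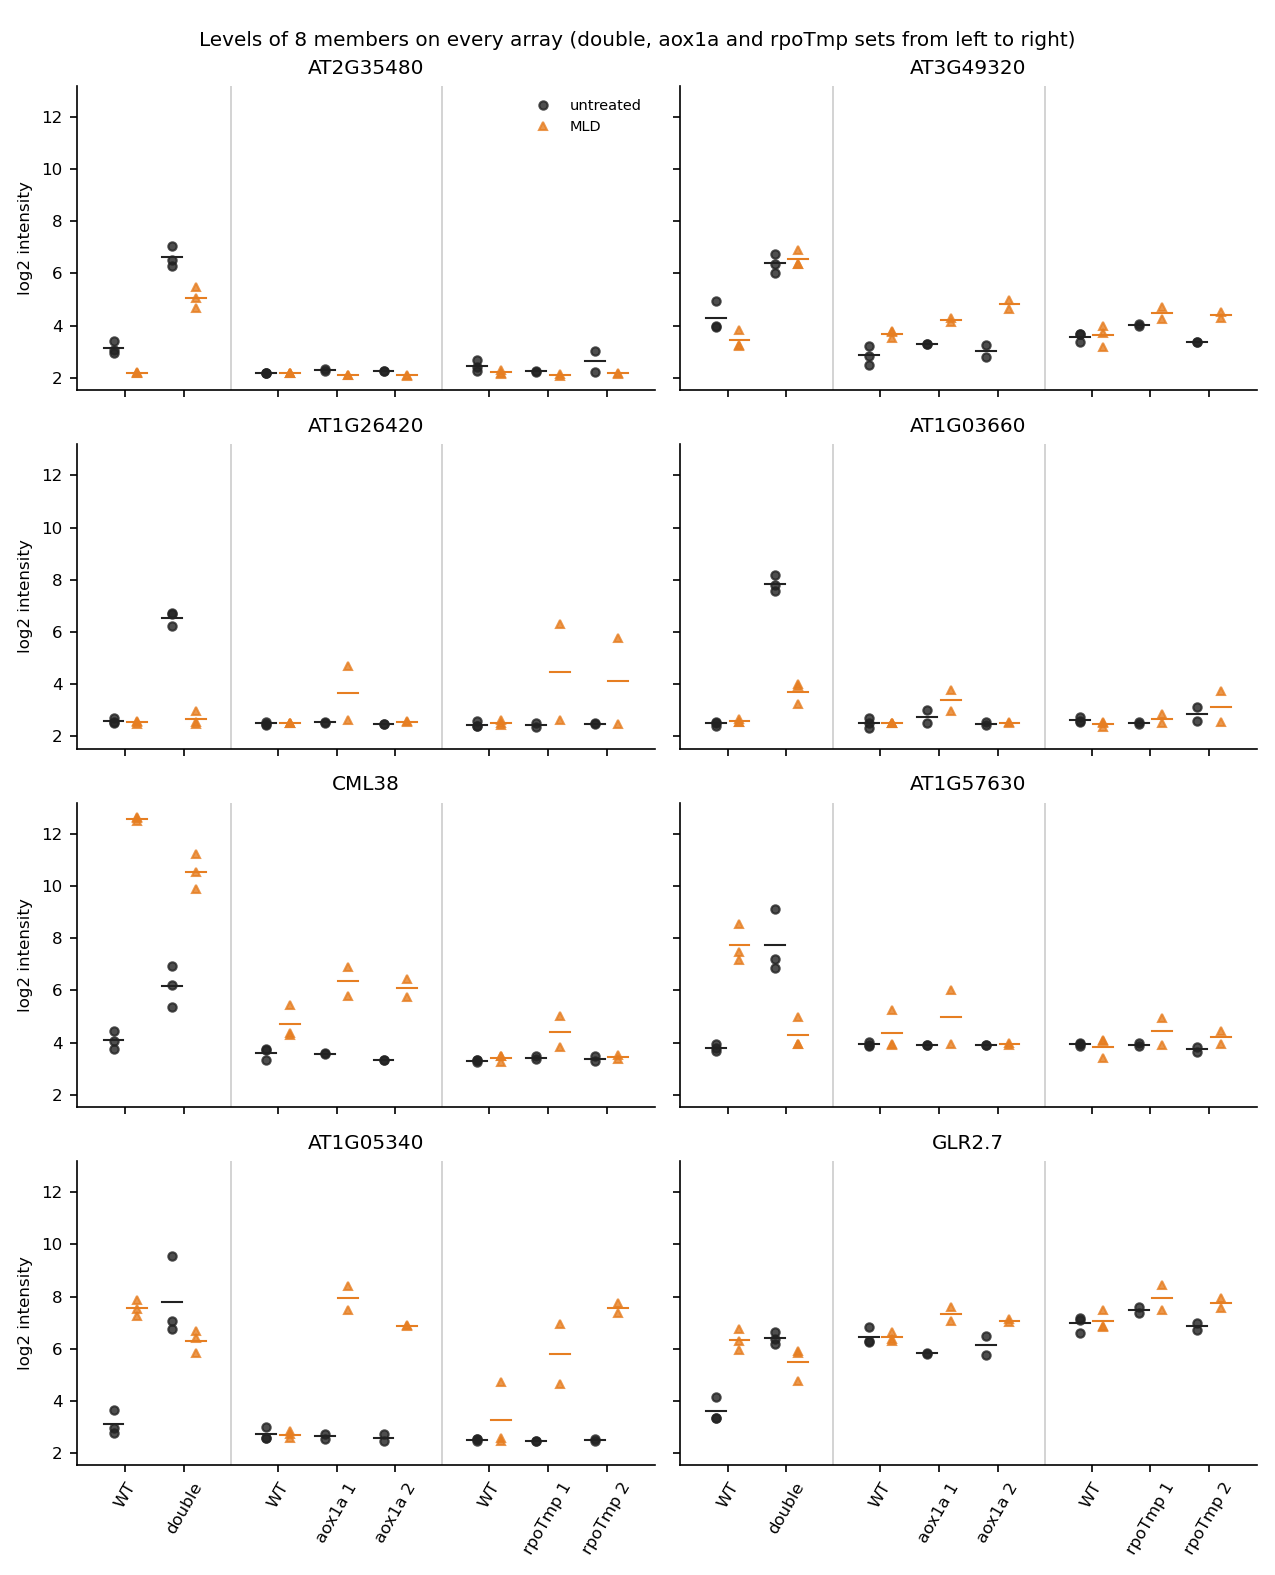
Log2 intensity on every array for 8 members, untreated (circles) and under MLD (triangles), with lines at the group means. The double, aox1a and rpoTmp sets stand from left to right, each mutant beside its own wild type. AT2G35480 and AT3G49320 stay above wild type in the double mutant under MLD, AT1G26420 does not, CML38 and AT1G57630 are below wild type there, AT1G05340 is high in both single mutants under MLD, and GLR2.7 is low only in untreated wild type of the double set.

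Of the enzyme members (10), 2 were higher, 2 lower and 6 not called in the double mutant under MLD, beside 18.8% higher and 17.1% lower among all probe sets, so their shares were near the background. AT1G26420, a flavin enzyme of the berberine bridge family, read 2.53, 2.53 and 2.72 in untreated wild type and 6.70, 6.71 and 6.23 in the double mutant. Under MLD both genotypes were near the floor, with 2.54, 2.58 and 2.49 against 2.47, 2.96 and 2.55 (0.12 ± 0.15, adjusted p = 0.603, limma). In rpoTmp under MLD it read 6.29 and 5.75 on replicate 1 of the lines and 2.62 and 2.49 on replicate 2, so the arrays of each line disagreed (1.78 ± 0.87, adjusted p = 0.173, limma).

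AT4G17260, a lactate dehydrogenase, which interconverts pyruvate and lactate, had a mean of 6.26 (SD 0.23, n = 3) in untreated wild type and read 8.53, 8.91 and 8.63 in the double mutant. Under MLD it read 7.94, 7.39 and 7.60 in wild type and 6.87, 6.33 and 6.19 in the double mutant (-1.18 ± 0.21, adjusted p = 0.00147, limma). In aox1a under MLD it was lower as well (-0.57 ± 0.12, adjusted p = 0.0191, limma, a call lost under 5 of 16 alternatives), with 5.75 to 6.71 in the lines and 6.71 to 7.03 in wild type. The methyltransferase-like AT3G54150 was lower under MLD in the double mutant too (-1.96 ± 0.52, adjusted p = 0.0143, limma), a call lost when wild-type replicate 1 or double mutant replicate 2 or 3 was left out (adjusted p = 0.0575, 0.0536 and 0.0547, limma).

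The enzymes called higher were AT3G43670, a copper amine oxidase, and AT2G25450, a dioxygenase of glucosinolate modification. AT3G43670 read 6.33, 5.16 and 5.68 in wild type and 6.32, 6.99 and 7.38 in the double mutant under MLD (1.17 ± 0.40, adjusted p = 0.0451, limma), with an overlap of the groups. AT2G25450 read 11.25, 11.50 and 11.20 against 11.64, 11.60 and 11.93 (0.41 ± 0.13, adjusted p = 0.031, limma). Both calls were lost when single arrays were left out, with adjusted p up to 0.15 and 0.111 (limma). For both genes the untreated wild type of the double set was low (5.44, 4.31 and 5.44, and 8.57, 8.52 and 8.56) beside untreated wild type of the other sets, which read 7.82 to 8.83 and 10.06 to 11.13.

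The enzymes not called in the double mutant under MLD were AT1G26420, AT4G39830, an ascorbate oxidase-like protein, AT5G42830, an acyltransferase, AT4G22530, a methyltransferase-like protein, AT2G32020, an acetyltransferase-like protein, and AT1G43910, an ATPase of the AAA type. AT2G32020 was near the floor in all groups but the double mutant, with 2.11 to 2.48 on every other array. In the double mutant it read 5.39, 6.76 and 6.65 untreated and 5.03, 2.99 and 2.53 under MLD, so all double mutant arrays lay above all others while the difference under MLD was not called (1.34 ± 0.58, adjusted p = 0.108, limma).

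The remaining single-gene members, most of them without a role given here, hold the differences with the smallest adjusted p among the single-gene members in the stressed double mutant. AT2G35480 read 3.43, 3.06 and 2.93 in untreated wild type and 6.29, 7.07 and 6.53 in the double mutant. Under MLD wild type was near the floor (2.24, 2.17 and 2.17) and the double mutant read 5.05, 5.49 and 4.67, a difference of 2.88 ± 0.24 (adjusted p = 2.05e-05, limma). Every aox1a and rpoTmp array, untreated or stressed, lay at or below 3.04.

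AT3G49320 had one of the smallest untreated differences of the members (2.09) and one of the largest under MLD. It read 3.25, 3.24 and 3.83 in stressed wild type and 6.92, 6.35 and 6.38 in the stressed double mutant (3.11 ± 0.31, adjusted p = 4.77e-05, limma). It was also higher in aox1a (0.82 ± 0.18, adjusted p = 0.0204, limma) and in rpoTmp (0.82 ± 0.19, adjusted p = 0.00863, limma) under MLD, calls lost under 7 and 1 of 15 alternatives, with adjusted p up to 0.173 and 0.0604 (limma). The double mutant difference exceeded the sum of the single ones by 1.47 ± 0.41 (adjusted p = 0.00471, limma over all 40 arrays).

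AT1G24095 lay between 2.01 and 2.48 in untreated and between 2.07 and 2.17 in stressed wild type, and read 5.46, 6.68 and 6.48 in the untreated and 5.25, 5.00 and 4.45 in the stressed double mutant (2.79 ± 0.31 under MLD, adjusted p = 9.53e-05, limma). AT2G03130, whose product resembles a ribosomal L12 protein, read 5.22, 6.55 and 6.57 untreated and 4.96, 4.84 and 4.47 under MLD in the double mutant, and no array of another genotype or line exceeded 3.44 (1.89 ± 0.32 under MLD, adjusted p = 0.00122, limma). AT1G03660 read 7.58, 8.18 and 7.79 untreated but 3.91, 3.99 and 3.24 under MLD, against 2.54, 2.65 and 2.53 in stressed wild type (1.14 ± 0.20, adjusted p = 0.00144, limma). For these genes the double mutant lay above its wild type on every array in both treatments, and none was called in either single mutant under MLD.

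AT1G65500 was also higher under MLD (4.18, 6.71 and 6.27 against 3.86, 3.65 and 3.49, 2.05 ± 0.64, adjusted p = 0.0308, limma). Of the double mutant arrays replicate 1 was close to wild type. The call was lost without any 1 of the wild-type arrays or without double mutant replicate 2 or 3, with adjusted p between 0.0625 and 0.113 (limma). The pentatricopeptide repeat protein gene AT2G20720, of a family that acts on organellar RNA, read 6.46, 7.82 and 6.92 in the untreated double mutant and 2.58 to 2.63 in wild type. Under MLD the double mutant was back at 2.63, 2.89 and 2.62 (0.22 ± 0.27, adjusted p = 0.614, limma).

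Lower in the double mutant under MLD were, beside those above, AT2G18690 (-2.09 ± 0.60), AT5G52750, a protein with a heavy-metal-binding domain (-1.73 ± 0.40), AT1G76970, a protein of membrane traffic (-1.21 ± 0.39), and AT1G62840 (-1.09 ± 0.12). Their adjusted p were 0.0219, 0.0073, 0.0361 and 0.000108 (limma). AT1G62840 read 6.80, 6.55 and 6.63 in stressed wild type and 5.64, 5.71 and 5.36 in the stressed double mutant. The calls of AT2G18690 and AT1G76970 were lost when single MLD arrays were left out, with adjusted p up to 0.0846 and 0.128 (limma). AT4G01870 (-1.69 ± 0.65) missed the threshold with all arrays (adjusted p = 0.0715, limma) and passed it without the untreated array that stood apart (adjusted p = 0.0228, limma). The fit without that array was chosen after the data were seen.

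The named AT1G58420 was low in untreated wild type (2.80, 3.34 and 3.29), read 5.07, 6.71 and 6.92 in the untreated double mutant and was high in both genotypes under MLD, at 8.39, 8.81 and 8.74 and at 9.06, 7.76 and 7.94 (-0.39 ± 0.49, adjusted p = 0.61, limma).

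Probe sets with no listed gene held the largest untreated differences. 263231_at, with the largest of all 80, read 2.29, 2.24 and 2.31 in untreated wild type and 11.01, 10.26 and 10.24 in the double mutant, and 2.31, 2.19 and 2.21 against 7.77, 8.95 and 8.43 under MLD (6.15 ± 0.28, adjusted p = 1.43e-06, limma). All arrays of the other sets lay between 2.22 and 2.87. 257774_at differed by 7.03 untreated and by 2.54 ± 0.36 under MLD (adjusted p = 0.000385, limma), and in stressed rpoTmp it read 5.39, 2.12, 6.00 and 5.08 against 2.08 to 2.10 in wild type (2.55 ± 0.60, adjusted p = 0.00973, limma, lost under 2 of 16 alternatives). So a signal close to that of the stressed double mutant (4.61, 5.59 and 4.20) was present on 3 of 4 stressed rpoTmp arrays.

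247435_at (6.98 untreated, 1.86 ± 0.33 under MLD, adjusted p = 0.00164, limma) and 253046_at (5.96 and 2.61 ± 0.45, adjusted p = 0.00126, limma) were higher in stressed rpoTmp as well, by 1.94 ± 0.28 and 2.18 ± 0.26 (adjusted p = 0.000649 and 0.000221, limma). For both, the double mutant effect was not shown to differ from the rpoTmp effect (-0.08 ± 0.40 and 0.42 ± 0.50, adjusted p = 0.903 and 0.555, limma). 262518_at varied widely in the stressed double mutant, at 3.53, 8.33 and 6.16 against 3.47 to 3.50 in wild type, and was not called (adjusted p = 0.0987, limma).

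The stress response of wild type in the double set differed among the 3 groups of members. From untreated to MLD, wild type of the double set went up by at least 1 log2 unit in 52.5% of the members (42 of 80) and in 11.3% of all probe sets, and down by at least 1 in 3 members (3.75%, against 11.2%). Among the 17 members called lower in the stressed double mutant 16 went up by at least 1 in wild type, with a median of 3.68. Among the 22 called higher 3 did, with a median of 0.01, and among the 41 not called 23 did, with a median of 1.34. These values share the stressed wild-type arrays with the calls and the untreated ones with the choice of members, so they are a description and carry no test. In the stressed wild type 21 members were at or above their level in the untreated double mutant, against 10434 of 22746 probe sets. The rule chose members for a high untreated double mutant level, so this count is only a description.

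In the double mutant itself most members were lower under stress than untreated, a difference that by the characteristics is also one between plants of 4 and of 5 weeks. From untreated to MLD 51 of 80 were below their untreated mean by at least 1 log2 unit and 10 exceeded it by as much, with a median of -1.59. Over all probe sets 3.86% were lower and 4.77% higher by that margin, with a median of -0.03. The untreated values that chose the members are one side of this difference, so it too is a description. The median levels of the members under MLD were 5.99 in wild type and 6.00 in the double mutant. In wild type of the other sets 8 members (10%) went up by at least 1 with the stress in the aox1a set and 6 (7.5%) in the rpoTmp set, with medians of 0.09 and 0.02, and 3 (3.75%) did so in all 3 sets. Over all probe sets the shares were 2.61%, 1.92% and 0.708%, so in each set the share was higher among the members, a difference that was not tested.

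Under MLD some members were also called in the single mutants, in aox1a at a share near that of all probe sets. In rpoTmp 24 of 80 (30%) were higher than wild type and 2 (2.5%) lower, with a median of 0.42. Over all probe sets the shares were 15.7% and 14.3%. In aox1a 8 (10%) were higher and 3 (3.75%) lower, with a median of 0.13. Over all probe sets the shares were 6.26% and 6.14% (12.4% called in all). Every stressed rpoTmp array lay above every stressed wild-type array of its set for 17 members and below for 2. Over all probe sets the shares were 17.7% and 17.6%. In aox1a this held for 16 and 5 members, against 16.6% and 11.8% of all probe sets. In both mutants the share of members lying above was thus near that of all probe sets, and the share below was smaller. These differences in share were not tested. The rpoTmp count changed with the arrays in the fit. With the stressed arrays alone 8 were called higher, and without wild-type MLD replicate 1 or replicate 3 it was 13 or 14. The aox1a count of members called higher ran from 3, without wild-type MLD replicate 1, to 14, without line 1 MLD replicate 1. It was 4 without wild-type MLD replicate 2 and 5 without line 2 MLD replicate 1. Shares over all probe sets were not taken for these fits, so the changes in count do not set the members apart.

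Named members higher in rpoTmp under MLD, beside those given above, were SBT3.5 (1.92 ± 0.48, adjusted p = 0.0126), AT5G42830 (1.45 ± 0.46, adjusted p = 0.0404), AT1G43910 (1.36 ± 0.36, adjusted p = 0.0173) and AT5G52750 (1.34 ± 0.37, adjusted p = 0.0219; all limma). AT1G65500, AT3G43670, AT1G62840 and GLR2.7 were higher there too, by 2.08 ± 0.63, 1.14 ± 0.35, 1.03 ± 0.22 and 0.80 ± 0.25. Lower were AT5G48570 (-0.97 ± 0.32) and AT2G25450 (adjusted p = 0.0232, limma). In aox1a the named members higher were AT1G05340, CML38 (6.90, 5.79, 6.42 and 5.74 against 4.31, 4.38 and 5.45, adjusted p = 0.0229, limma), AT3G49320, Fes1A (0.78 ± 0.14), GLR2.7 (0.76 ± 0.21) and AT3G10930 (0.57 ± 0.08). AT4G22530 (-0.70 ± 0.18) and AT4G17260 were lower.

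Most of these single mutant calls were lost under some alternative (19 of 24, counting the unnamed probe sets described above). In aox1a, GLR2.7 was lost under 13 of 16 alternatives, AT4G22530 under 9 of 15, CML38 under 6 of 16, and Fes1A and AT3G10930 under 1 each. In rpoTmp, AT5G48570 was lost under 11 of 16, AT3G43670 under 10, GLR2.7 under 9, AT1G65500 and AT2G25450 under 7 each, AT5G52750 under 6, AT1G43910 under 5 and SBT3.5 under 3, and AT5G42830 under 8 of 15. Under none of the alternatives run were AT1G05340 in either mutant or AT1G62840, 247435_at and 253046_at in rpoTmp lost.

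On stressed rpoTmp line 1 replicate 2, 24 of 80 members lay at least 1 log2 unit below the mean of the other 3 stressed rpoTmp arrays and none that far above, against 2.55% of all probe sets below. SBT3.5 read 7.10, 5.81, 8.37 and 6.57 and AT5G42830 read 5.33, 2.96, 4.95 and 4.94 in stressed rpoTmp, against 4.32 to 5.66 and 2.89 to 3.20 in wild type. Without that array 33 members were higher, in a fit for which the share over all probe sets was not taken. The array was singled out by the values of these members, so that count is a description. Between the lines of aox1a and between those of rpoTmp, no member was called under MLD (0 of 80 each way by limma in both mutants, against 0.106% higher and 0.0176% lower of all probe sets in aox1a, 0.123% together, and 0.0659% and 0.101% in rpoTmp, 0.167% together).

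**Figure D4:**
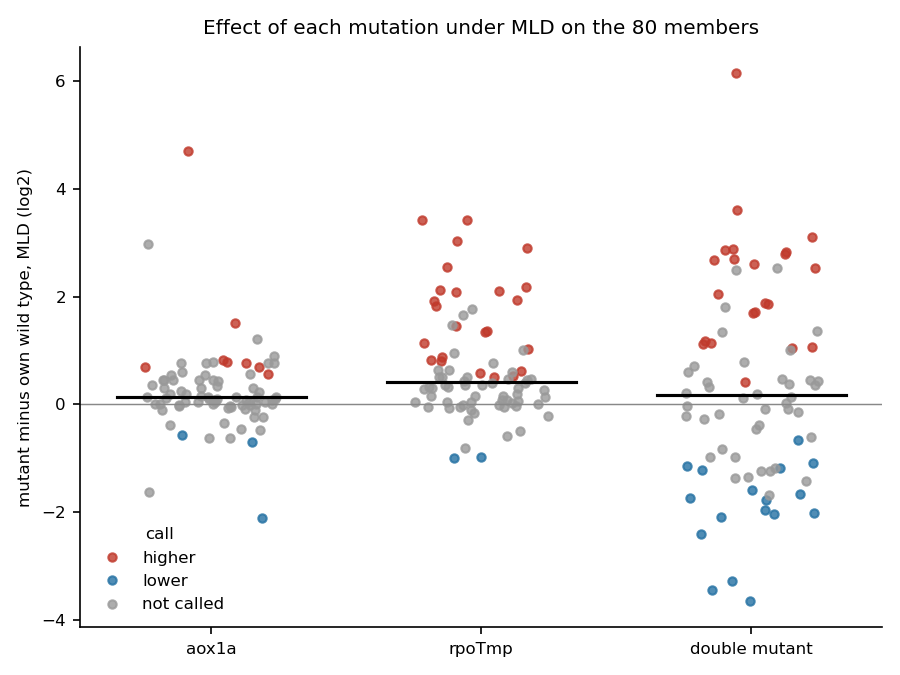
Log2 difference between each mutant and its own wild type under MLD for the 80 members, 1 point per member, spread sideways at random, with bars at the medians (0.13 in aox1a, 0.42 in rpoTmp, 0.17 in the double mutant). Colours give the call in each mutant. The double mutant has calls in both directions, while 24 of the 26 calls in rpoTmp are higher.

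Tested directly, the double mutant effect under MLD exceeded the aox1a effect for 20 members and fell below it for 19, against 16.7% and 16.2% of all probe sets (33.0% together). It exceeded the rpoTmp effect for 16 and fell below it for 23, against 20.5% and 21.4% (41.9% together). Against the sum of both single effects it was higher for 14 and lower for 24, against 19.8% and 21.9% (41.7% together). The first 2 of these tests share the double set's arrays, and the third shares arrays with both. Of the members 13 (16.2%) were higher in the stressed double mutant and called in no single mutant, against 7.96% of all probe sets, and 11 (13.8%) were lower there and called in no single mutant, against 7.42%. Another 6 (7.5%) were higher in the double mutant and in rpoTmp and not called in aox1a, against 1.06%, and 2 (2.5%) in all 3 mutants, against 0.453%. No mutant gave a call for 24 (30.0%), against 48.9%. These differences in share were not tested.

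The members were also set beside the 135 probe sets that met the same limits on difference and level but changed by 0.5 or more in an untreated single mutant. Their median untreated difference was 2.98. Under MLD 31.1% of them were higher and 25.9% lower in the double mutant, against 27.5% and 21.2% of the members. In rpoTmp 68.1% were higher under MLD, against 30.0% of the members, and the medians were 1.55 and 0.42. The rule kept out probe sets that changed in untreated rpoTmp, so that difference touches the choice of members, and it was not tested.

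The untreated wild types of the other sets give a second reference. Of the 80 members 52 had a double mutant mean at least 2 above the means of all 3 untreated wild types, against 143 of 22746 probe sets. In 11 members both other wild types lay at least 1 above the wild type of the double set, and in 6 both lay at least 1 below it. Over all probe sets these were 1147 and 1024. In 8 members at least 1 of the other wild types reached the untreated double mutant, and in 5 both did, among them AT3G43670. Over all probe sets these were 12997 and 6916. The untreated double set values in these counts chose the members, so the counts are a description.

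**Figure D5:**
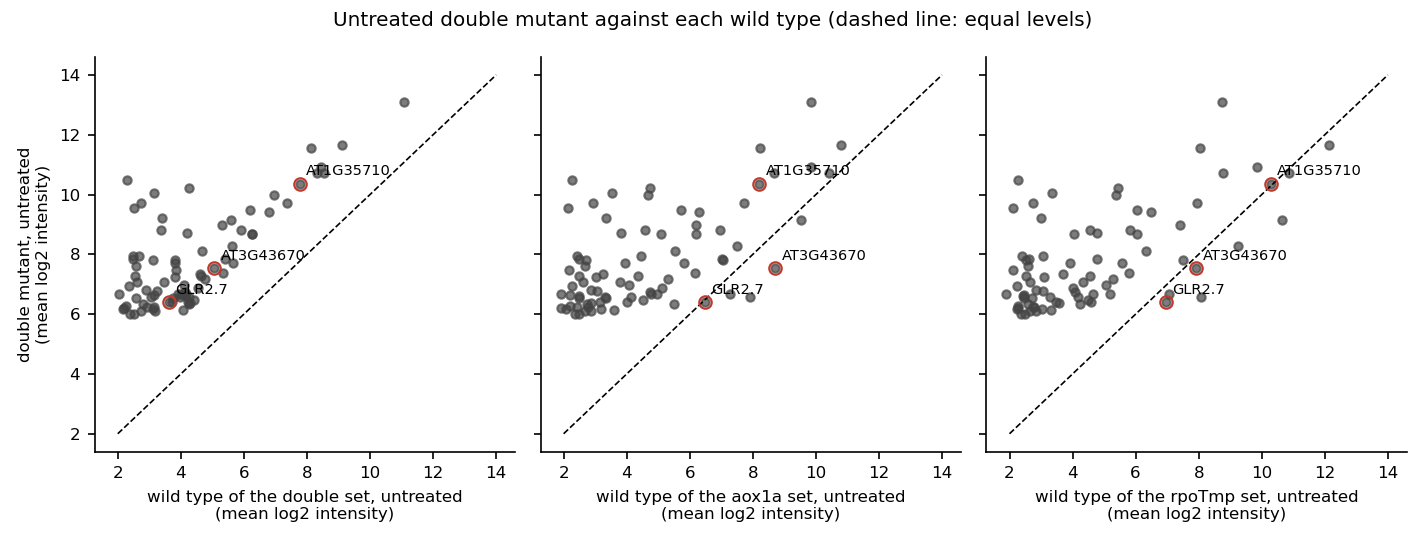
Mean log2 intensity of the 80 members in the untreated double mutant (y axis) against untreated wild type of the double, aox1a and rpoTmp sets (x axis, from left to right); the dashed line marks equal levels. All points lie above the line in the first panel by the choice of members, while GLR2.7 and AT3G43670 lie on or below it in the other panels and AT1G35710 lies on it in the third.

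Of the mitochondrial retrograde response genes listed, 3 of 17 have a single-gene probe set and none is a member. Genes that met the limits but were left out by name do not count as members. The absence therefore does not show that no such gene rose only in the double mutant. AT2G21640 lay 5.91 and AT5G09570 7.10 above wild type in the untreated double mutant, and both also lay above wild type in untreated rpoTmp, by 2.31 and 4.56, which keeps them out of the rule. Under MLD 2 of the 3 were higher, AT5G09570 (5.38 ± 0.30, adjusted p = 3.54e-06, limma) and AT2G21640 (4.56 ± 0.22, adjusted p = 2.01e-06, limma), and 1 was lower: NDB2, an alternative NAD(P)H dehydrogenase of mitochondria (3.52 untreated, -1.19 ± 0.22 under MLD, adjusted p = 0.00175, limma). Of 7 measured detoxification genes, of 26 listed, 2 were higher under MLD (UGT73C1 at 3.27 ± 0.29 and GSTU20 at 0.79 ± 0.17) and 1 lower (UGT73B5 at -1.36 ± 0.44). Untreated, UGT73C1 (2.81) and GSTU22 (2.84) lay above wild type in the double mutant and between -0.06 and 0.04 from it in the single mutants. Double mutant levels of 5.03 and 5.45 kept them out of the rule. Under MLD UGT73C1 was also higher in aox1a (2.40 ± 0.27) and rpoTmp (1.65 ± 0.12), while GSTU20 was lower in both (-1.91 ± 0.35 and -2.14 ± 0.31).

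In the remaining lists, drought and abscisic acid genes were 2 lower of 3 measured under MLD (COR47 at -3.22 ± 0.39 and LTI30 at -3.20 ± 0.61), while untreated they differed by 0.54 and 0.92. Both are dehydrin genes. Of 2 measured genes of the unfolded protein response in the endoplasmic reticulum, BZIP60, its transcription factor, was lower under MLD (-0.68 ± 0.23, adjusted p = 0.0457, limma and 2.51 untreated) and ATERDJ3B, a chaperone, higher (0.78 ± 0.16, with 0.75 untreated). Of 3 measured senescence genes SAG101 was lower (-1.08 ± 0.16, with 1.44 untreated) and none higher. STZ, a zinc finger factor and the 1 measured oxidative stress gene, was lower (-1.06 ± 0.26), 2 of 4 amino acid catabolism genes were lower (IVD and MCCA), and PDF1.2, the 1 measured jasmonate gene, was higher (3.56 ± 0.85). No salicylic acid gene of the list is measured.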

How the data were processed

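The authors deposited 1 table of intensity values for 22810 probe sets on 40 arrays, on a linear scale. Affymetrix Expression Console, MAS5, Partek 6.5 and GCRMA are named, with no roles or order, per the submitters' processing notes. The test plan assumed log2 values, so log2 was taken here, adding nothing to the values. Affymetrix controls (64 probe sets) were left out of the choice of members, the fits and all shares. They entered only the GAPDH differences and the lowest value of each array. Probe sets were named through GEO's platform annotation and the TAIR10.1 RefSeq gene table (13436 of 13513 single-gene probe sets matched, 37 of 38 among the members), which gives names only; roles of genes are general knowledge. Linear models were fitted per set (limma 3.58.1, R 4.3.3), a mean for each group and equal weight for both lines of a single mutant, and differences between mutants in a fit of all 40 arrays. Calls used a Benjamini-Hochberg adjusted p under 0.05 over 22746 probe sets; the fit was tested on simulated data. Near the floor the spread is small, so an SE there can be too. Members and lists were chosen with earlier results of these data known, and the role groups after values were seen. All single-gene members could be named, and the 5 unnamed probe sets with the largest untreated difference. The number of arrays limits the precision. No sequences are printed.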

Additional observations from a re-analysis of the deposited data

Results flagged for a closer look

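The effect of the double mutation under MLD was tested against that of each single mutation and against their sum, each mutant first compared with its own wild type. It differed from the aox1a effect in 39 of the 80 members, from the rpoTmp effect in 39 and from the sum of both in 38 (limma over all 40 arrays, adjusted p under 0.05). Over all probe sets 33.0%, 41.9% and 41.7% differed in the same tests.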

How the results depend on the processing

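The double mutant count of 39 members called under MLD stayed within 1.5 times under all alternatives (22 higher and 17 lower in the main result; 32 to 45 called when single arrays were left out, with 18 to 26 higher and 12 to 22 lower), as did the counts for the double effect against aox1a (31 to 43), rpoTmp (33 to 42) and their sum (32 to 44). The alternative without untreated double mutant replicate 1 was chosen after seeing the data. With MLD arrays alone, which leaves the untreated spread out, named double mutant calls changed both ways. Gained were, for example, AT5G48570 and AT1G05340 (adjusted p = 0.00462 and 0.0218, limma). Lost were, for example, AT3G43670 and AT1G65500 (adjusted p = 0.0914 and 0.0866, limma). The single mutant counts were less stable. Shares over all probe sets were not taken under the alternatives, so this does not set the members apart from other probe sets. In aox1a 11 members were called, 8 of them higher, but 5 (5 higher) with MLD arrays alone, 4 (4 higher) with line 2 alone, and 3 to 16 (3 to 14 higher) without single arrays, with 3, 5 and 6 called without wild-type MLD replicate 1, wild-type MLD replicate 2 and line 2 MLD replicate 2. In rpoTmp 26 were called, 24 higher, but 9 (8 higher) with MLD arrays alone, 14 (12 higher) with line 1 alone, and 14 to 33 (13 to 33 higher) without single arrays, with 14, 17 and 15 without wild-type MLD replicates 1, 2 and 3. The number of members, 80, became 122 with a rise of 1.5, 43 with a rise of 3, 42 with a single mutant limit of 0.25, 145 with a limit of 1, and 73 to 97 without single untreated arrays. Of 46 calls of named members 20 held under every alternative run and none changed sign; the causes of the changes were not tested.

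Same replicate numbers did not pair the samples, with median correlations of deviations of 0.05 in the aox1a set, 0.008 in the double set and 0.004 in the rpoTmp set. With the replicate number as a block 36 members were called in the double mutant, 4 in aox1a (4 higher) and 15 in rpoTmp (14 higher). For these fits, too, the shares over all probe sets were not taken.

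Levels near the floor limit the result: 21 members had an untreated wild-type mean under log2 3, where a fall cannot be followed.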
